A study of Mus musculus with 39 samples.

Results

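The genes described here number 36 and encode the machinery of the lysosome: the proton pump of its membrane (V-ATPase), soluble hydrolases with their cofactors, and proteins of the lysosomal membrane. They were selected by gene symbol, and all 36 were found among the 46333 genes of the female count table and among the 54532 genes of the male table. By role, 6 encode subunits of the membrane sector of the pump (V0), 8 subunits of its cytosolic sector (V1), 2 accessory subunits, 8 glycosidases, 6 proteases, lipid hydrolases and their activators, and 6 membrane proteins.

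The V-ATPase spends ATP in its V1 sector to drive protons through its V0 sector into the lysosome, and the acid lumen lets the hydrolases work. Microglia, the resident phagocytes of the brain, deliver engulfed material such as amyloid and myelin to this compartment, and inherited loss of many of the enzymes causes lysosomal storage disease. The transcription factors TFEB and TFE3 bind a short palindromic motif near the start of many lysosomal genes. When nutrients are plentiful, a kinase complex on the lysosomal surface keeps both factors out of the nucleus.

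Bulk mRNA was sequenced in 39 libraries of CD11b+ microglia, which were taken from the perfused cerebrum with magnetic beads after papain digestion. The female groups were WT in normoxia (WT NX, n = 4), WT in chronic intermittent hypoxia (WT CIH, n = 5), 5XFAD NX (n = 5) and 5XFAD CIH (n = 5), all at 10 months of age. The male groups were the same 4 with n = 5 each, at 8 months of age. The mice came from C57BL/6J WT dams and sires of the 5XFAD line, which has a B6SJL background. 5XFAD mice carry mutant human transgenes that neurons express from the Thy1 promoter and that lead to amyloid plaques. CD11b is also carried by border macrophages, monocytes and neutrophils, so the bead isolate can hold these cells. Exposure started at 4 months of age in both sexes. The submitters' design text describes CIH as 6.5% O2 in turn with 21% O2 at 90-s intervals for 8 h per day, and NX as 21% O2 throughout, whereas the study's methods give another low level and longer hours. Sex, age and length of exposure differ together and the sexes have separate tables, so male and female values were not tested against each other.

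The depth was similar across the series, with between 14731683 and 25906121 gene counts in a female library and between 13457293 and 23095627 in a male one. The libraries held the transcripts that define microglia: 12 microglia markers summed to between 28288 and 43252 CPM (counts relative to the library size, after TMM scaling over the libraries of a sex), and 10 neuronal markers to between 10.7 and 59.6 CPM. Of other CD11b+ cells, 10 border macrophage markers summed to 455 to 1897 CPM, 10 neutrophil markers to 10.6 to 1390 CPM and 10 monocyte markers to 88.9 to 633 CPM. These sums hold different genes and do not give shares of cells. No marker was at 0 in every library of a group. Some libraries stood apart from their groups. F 5XFAD NX 4 lay at −42.5 on the first principal component, among the WT females (−58.2 to −27.9), while the other 5XFAD females lay between 35.9 and 69.8. Its 16 markers of disease-associated microglia (DAM) summed to 2989 CPM, below the lowest WT NX female (3760.4 CPM). F WT NX 1 had the highest DAM sum of the WT females (9693 CPM, against 3518 to 5114 CPM in the others). M 5XFAD NX 4 and 5 lay at −1.94 and −3.65 on the first male component, while the other 3 libraries of that group lay between 78.8 and 80.1. The number of genes with a count was 38551 in F 5XFAD NX 4, against 21697 to 22148 in the others of its group, and 22743 and 22621 in M 5XFAD NX 4 and 5, against 18350 to 19777 in the other 3. Counts of the 36 genes and the main values that rest on these libraries are given with and without them.

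Promoter windows of 250 bases before the start (RefSeq, GRCm38.p6) were at hand for 29 of the 36 genes, and the TFEB-type motif TCACGTG, searched on both strands, occurred in 8 of them (27.6%). Of all 27025 genes with such a window, 968 (3.58%) held it. The core CACGTG, which lies inside every TCACGTG, was also in 8 of the 29 (27.6%), against 6.86% of all genes. The symmetric form TCACGTGA, which holds the core too, was in 2 (6.9%, against 0.907% of all genes), and the 10-base palindrome around it was in 0 of the 29, against 0.27% of all genes. The 8 genes were Glb1, Naglu, Gaa, Lamp1, Mcoln1, Lgmn, Atp6v0b and Atp6v1a. A match describes these letters only. The sequences of 6 genes are shown so that the motif can be read beside the expression values: Glb1, Naglu and Lamp1, which were higher in 5XFAD in at least 3 of the 4 genotype comparisons, Atp6v1a of the V1 sector, Lgmn, which was called lower in 5XFAD in 2 of the 4, and Mcoln1, which was called in none of them. They lie at chr9:114401003-114401062 (plus strand) for Glb1, chr11:101069994-101070053 (plus strand) for Naglu, chr8:13159073-13159132 (plus strand) for Lamp1, chr12:102439109-102439168 (minus strand) for Lgmn, chr16:44139260-44139509 (minus strand) for Atp6v1a and chr8:3500269-3500518 (plus strand) for Mcoln1. Each is written 5′ to 3′ on the strand of its gene, and capitals mark TCACGTG or its reverse complement.
Glb1: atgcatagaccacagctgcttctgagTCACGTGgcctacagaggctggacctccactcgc
Naglu: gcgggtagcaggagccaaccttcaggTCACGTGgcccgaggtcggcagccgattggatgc
Lamp1: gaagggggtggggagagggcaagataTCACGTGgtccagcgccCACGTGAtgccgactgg
Lgmn: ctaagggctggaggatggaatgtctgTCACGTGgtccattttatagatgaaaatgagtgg
Atp6v1a: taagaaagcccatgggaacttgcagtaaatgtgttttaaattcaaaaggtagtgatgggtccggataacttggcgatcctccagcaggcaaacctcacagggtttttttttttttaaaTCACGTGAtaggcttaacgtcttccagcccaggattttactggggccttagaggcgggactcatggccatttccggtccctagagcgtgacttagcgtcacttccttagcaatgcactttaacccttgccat
Mcoln1: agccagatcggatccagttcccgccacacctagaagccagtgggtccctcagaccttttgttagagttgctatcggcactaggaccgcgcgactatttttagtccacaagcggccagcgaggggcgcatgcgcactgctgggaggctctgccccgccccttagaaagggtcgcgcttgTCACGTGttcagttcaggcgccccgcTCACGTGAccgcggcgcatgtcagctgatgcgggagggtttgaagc
The first site begins 49 bases before the RefSeq start in Glb1, 74 in Naglu, 62 in Lamp1, 50 in Lgmn, 132 in Atp6v1a and 72 in Mcoln1. The 250 bases of Lamp1 hold 4 sites, of which the first 2 are in the stretch shown, and those of Mcoln1 hold 2. The Lgmn site lies before the downstream one of 2 RefSeq starts of that gene.

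Per kilobase of gene (FPKM), the most abundant members were Lgmn, the gene of the asparagine endopeptidase legumain, and Psap, the precursor of the saposins that present lipids to their hydrolases. In WT NX females, Lgmn was at 1921 ± 52.4 FPKM and Psap at 1697 ± 279 FPKM (mean ± SD, n = 4). In WT NX males, they were at 1927 ± 68.1 FPKM and 1629.8 ± 87.4 FPKM (n = 5). The order of both genes was the opposite in each 5XFAD group, for example with 1641 ± 123 FPKM for Psap and 1358 ± 35.5 FPKM for Lgmn in 5XFAD CIH females (n = 5). Grn, whose protein progranulin is delivered to the lysosome, ranked next in all 4 WT groups, and Hexa, the α-subunit of β-hexosaminidase, took that rank in both male 5XFAD groups (1179 ± 230.3 FPKM in NX and 1280.1 ± 143 FPKM in CIH). The least abundant in WT NX males was Atp6v0d2, an alternative V0 subunit known from osteoclasts, at 0.0594 ± 0.0799 FPKM, followed by Galc, the galactosylceramidase that degrades myelin lipid, at 3.33 ± 0.243 FPKM (n = 5). Gene lengths and scaling behind FPKM differ between the female and the male table, so FPKM were compared only within a table.

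Genotype was first compared in NX females (WT NX vs 5XFAD NX). Of the 36 genes, 10 were higher in 5XFAD with an FDR below 0.05 (the Benjamini-Hochberg adjusted p of edgeR's quasi-likelihood test over all genes), while 7.26% of the 14513 genes tested were higher. The test called 0 of the 36 as lower, against 6.61% of all genes, and DESeq2 called 1 as lower. Glycosidases made up most of the calls: 7 of 8 were higher, against 1 of 8 V1 subunits, 2 of 6 proteases and lipid hydrolases, and 0 of the 6 V0, 2 accessory and 6 membrane genes. The median log2FC (log2 fold change of 5XFAD against WT) was 0.48 over the 36 genes and −0.02 over all genes. Besides the glycosidases Glb1, Gusb, Galc, Hexa, Gaa, Naglu and Man2b1, the called genes were Grn, Ppt1, which removes palmitate from proteins, and Atp6v1c1, the C subunit of V1. The study's further limit, an absolute log2FC above 1, was passed by 6 of the 36 upwards, against 4.4% of all genes.

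Glb1 (ENSMUSG00000045594, GRCm38 chr9:114401076-114474898, plus strand), the lysosomal β-galactosidase, had the largest rise of the genes called. It was at 77.1, 73.9, 86.6 and 69.8 CPM in the 4 WT NX females and at 317, 313, 217, 62.9 and 323 CPM in the 5 5XFAD NX females. Of the 5XFAD libraries, 4 were far above every WT library and F 5XFAD NX 4 was below all of them, so the groups overlapped. The log2FC of Glb1 was 1.68 (SE 0.37, FDR = 0.0253). Gusb, the β-glucuronidase, followed with 1.52 (SE 0.35, FDR = 0.0280), and Galc with 1.23 (SE 0.30, FDR = 0.0332). Hexa reached 1.22 (SE 0.32, FDR = 0.0372), Gaa, the acid α-glucosidase of glycogen, 1.08 (SE 0.27, FDR = 0.0357), and Naglu, an enzyme of heparan sulfate breakdown, 1.04 (SE 0.26, FDR = 0.0354).

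The count of calls in NX females depended on single libraries. Without F 5XFAD NX 4, 25 of the 36 genes were higher and 1 was lower, among 14149 genes of which 44% were called, and the log2FC of Glb1 was 1.92 (SE 0.13, FDR = 7.3e-06). By role, 8 of 8 glycosidases, 4 of 6 V0 subunits, 6 of 8 V1 subunits, 1 of 2 accessory subunits, 3 of 6 proteases and lipid hydrolases and 3 of 6 membrane proteins were then higher. Gusb had a log2FC of 1.74 (SE 0.14), Galc of 1.44 (SE 0.12), Hexa of 1.42 (SE 0.12), Gaa of 1.27 (SE 0.090) and Naglu of 1.22 (SE 0.10). The gene that was lower was Lgmn, with a log2FC of −0.32 (SE 0.088, FDR = 0.0139). With all 9 libraries, Lgmn was lower in every 5XFAD NX female (2571 to 3134 CPM) than in every WT NX female (3466 to 3620.3 CPM), but its log2FC of −0.31 did not pass the test (unadjusted p = 0.0247, FDR = 0.0966). Without F WT NX 1, Atp6v0d2 was the 1 gene called, against 6.52% of all genes. Without any one of the other 7 libraries edgeR called 0 of the 36, against 0.301% to 3.27% of all genes. On all 9 libraries, DESeq2 called 20, against 24.2% of all genes.

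Atp6v0d2 (ENSMUSG00000028238, chr4:19876841-19922605, minus strand) depended on single libraries. It was at 33.4, 0.118, 0.724 and 0.167 CPM in WT NX females 1 to 4 and at 56.9, 53.0, 18.7, 0.107 and 63.2 CPM in 5XFAD NX females 1 to 5. F WT NX 1 was thus within the 5XFAD range, and F 5XFAD NX 4 was below every WT library. Over all 9 libraries the log2FC was 2.11 (SE 1.45, FDR = 0.324). Without both libraries it was 7.05 (SE 0.61, FDR = 3.1e-05), where 28 of the 36 genes were higher and 1 was lower, with 45.1% of 13962 genes called. Fitted values of a gene this close to 0 depend on the prior count. The ratio of the summed counts, corrected for library size, was 3.35 with all libraries and 139 without both (exact 95% interval for counting error alone 88.7 to 231).

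**Figure D1:**
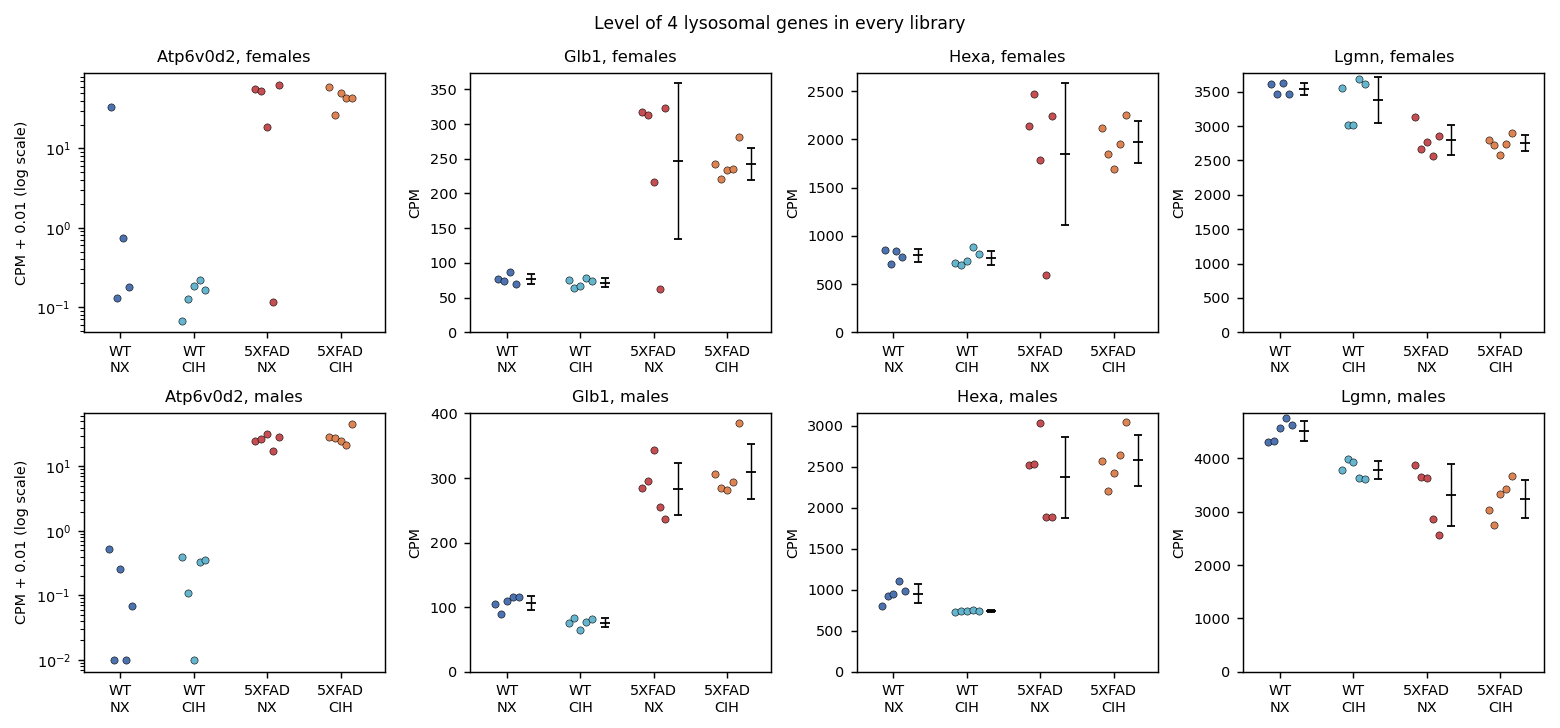
Level of Atp6v0d2 (CPM + 0.01, log axis), Glb1, Hexa and Lgmn (CPM) in every library by group, in females above and males below; points are libraries and bars the mean ± SD, which is not drawn for Atp6v0d2. F 5XFAD NX 4 lies with the WT females for Atp6v0d2, Glb1 (62.9 CPM) and Hexa (599 CPM), and F WT NX 1 lies with 5XFAD for Atp6v0d2 (33.4 CPM).

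Under CIH, the genotype difference of females (WT CIH vs 5XFAD CIH) was called in nearly all of the 36 genes. In 5XFAD, 30 were higher and 2 were lower, against 26.2% and 25.7% of the 14911 genes tested. All 8 glycosidases and all 8 V1 subunits were higher, as were 5 of 6 V0 subunits, 4 of 6 proteases and lipid hydrolases, 4 of 6 membrane proteins and 1 of 2 accessory subunits. The median log2FC was 0.62 for the 36 genes and −0.02 for all genes, and 8 passed the limit of a log2FC above 1, against 8.83% of all genes. In 26 of the 36 every 5XFAD CIH library was above every WT CIH library, and in 2 every one was below. Such separation was not counted over all genes, so it describes the 36 genes only.

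Atp6v0d2 was close to 0 in all WT CIH females, at 0.0573, 0.117, 0.175, 0.208 and 0.153 CPM, and was at 59.0, 26.2, 49.4, 43.5 and 42.8 CPM in 5XFAD CIH. The groups were far apart, with 13 counts in all 5 WT CIH libraries together and 3557 in the 5 5XFAD CIH libraries, and the ratio of the summed counts was 304 (exact 95% interval for counting error 177 to 571). The separate edgeR test of Atp6v0d2 gave an FDR of 4.4e-10. Atp6v0d1, the d subunit used in most tissues, differed far less, with a log2FC of 0.33 (SE 0.050, FDR = 9.9e-05). Per kilobase, Atp6v0d2 reached 13.5 ± 3.72 FPKM in 5XFAD CIH females and Atp6v0d1 59.6 ± 2.88 FPKM (n = 5 each).

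Glb1 was at 75.3, 64.1, 66.2, 78.0 and 74.6 CPM in WT CIH females and at 242, 221, 234, 236 and 281 CPM in 5XFAD CIH females. No library of either group came near the other, and the log2FC was 1.77 (SE 0.074, FDR = 1.0e-09). Gusb had a log2FC of 1.70 (SE 0.072), Galc of 1.42 (SE 0.077), Hexa of 1.36 (SE 0.090) and Atp6v1a, the catalytic A subunit of V1, of 1.30 (SE 0.087), each with an FDR of at most 6.8e-08. At the other end of the called glycosidases, Neu1, the lysosomal sialidase, had a log2FC of 0.36 (SE 0.053, FDR = 8.0e-05).

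Both genes that fell in 5XFAD CIH females changed by little. Lgmn (ENSMUSG00000021190, chr12:102394084-102439813, minus strand) was at 3558, 3018, 3016, 3686 and 3613 CPM in WT CIH and at 2800.3, 2731, 2579, 2745 and 2898 CPM in 5XFAD CIH. Every 5XFAD library was below every WT library, with a log2FC of −0.29 (SE 0.069, FDR = 0.00311). Atp6v0b, a proteolipid of the proton-carrying V0 ring, was at 375, 386, 358, 387 and 367 CPM in WT CIH and at 358, 329, 326, 329.7 and 328 CPM in 5XFAD CIH, again without overlap but by a narrow margin, and its log2FC was −0.16 (SE 0.054, FDR = 0.0229). Leaving out 1 library at a time, Atp6v0b was called in 7 of 10 fits, with a highest FDR of 0.0605. The other ring proteolipid among the 36 genes, Atp6v0c, went the opposite way, with a log2FC of 0.92 (SE 0.067, FDR = 1.4e-07).

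**Figure D2:**
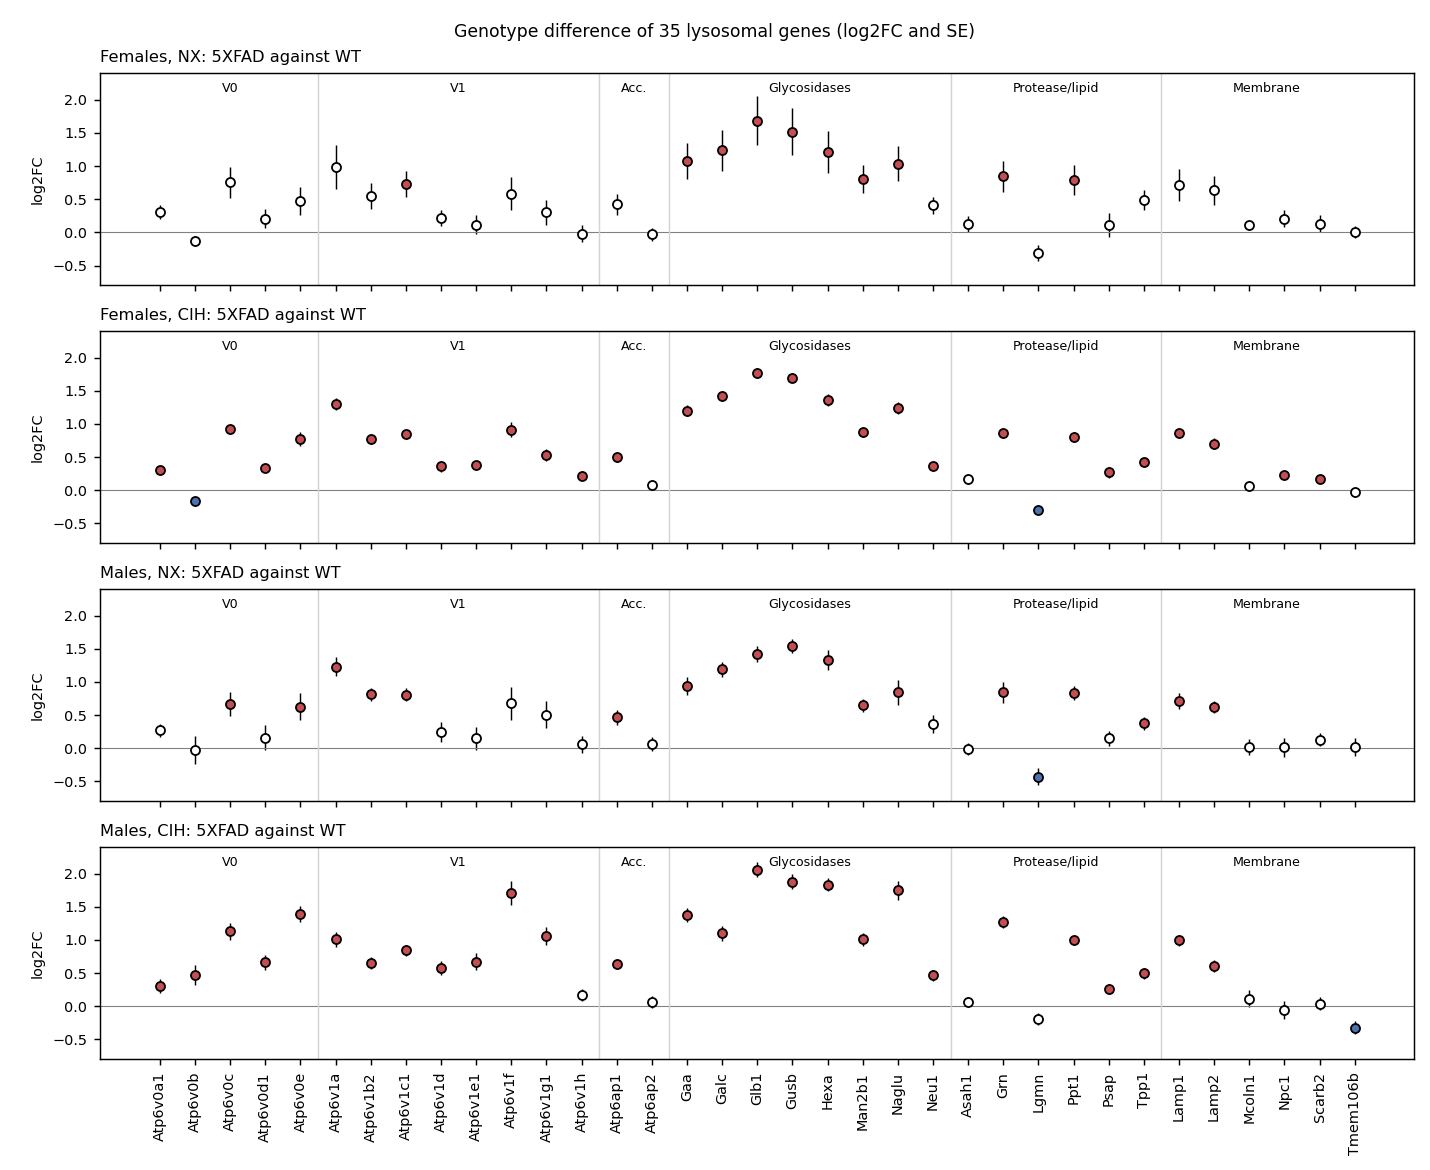
Genotype difference (log2FC of 5XFAD against WT, with its SE as a line) of 35 genes by role in the 4 comparisons; red points were higher and blue points lower with an FDR below 0.05, white points were not called, and Atp6v0d2 is left out because its values exceed the axis. Glb1 and Gusb stand highest in every panel, and the membrane proteins other than Lamp1 and Lamp2 lie between −0.32 and 0.23.

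In NX males (WT NX vs 5XFAD NX), 19 of the 36 genes were higher and 1 was lower, against 10.4% and 7.37% of 14834 genes tested. By role, 7 of 8 glycosidases, 3 of 6 V0 subunits, 3 of 8 V1 subunits, 1 of 2 accessory subunits, 3 of 6 proteases and lipid hydrolases and 2 of 6 membrane proteins were higher. The median log2FC was 0.56 for the 36 genes and 0.02 for all genes, and 6 passed the limit of a log2FC above 1, against 5.94% of all genes. Every 5XFAD library was above every WT library in 18 of the 36 genes and below in 1, which was not counted over all genes.

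Atp6v0d2 had the largest difference again. It was at 0.507, 0, 0.246, 0 and 0.0578 CPM in WT NX males and at 24.9, 26.9, 32.0, 17.3 and 29.0 CPM in 5XFAD NX males. The groups were far apart, and the ratio of the summed counts was 141 (17 counts against 1844, exact 95% interval for counting error 88.0 to 243). The separate edgeR test of Atp6v0d2 gave an FDR of 1.4e-06. Gusb had a log2FC of 1.54 (SE 0.11), Glb1 of 1.42 (SE 0.12), Hexa of 1.33 (SE 0.15), Atp6v1a of 1.23 (SE 0.14) and Galc of 1.19 (SE 0.11), each with an FDR of at most 7.1e-05.

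Hexa was at 796, 923, 953, 1111 and 984 CPM in WT NX males and at 2523, 2528, 3037, 1882 and 1882 CPM in 5XFAD NX males, with no overlap. The gene that fell was Lgmn. It was at 4298, 4322, 4573, 4749 and 4621 CPM in WT NX and at 3880.5, 3647, 3636, 2853 and 2554 CPM in 5XFAD NX, every 5XFAD library being below WT, with a log2FC of −0.43 (SE 0.13, FDR = 0.0327). Without M 5XFAD NX 4 and 5, its 2 lowest libraries, the log2FC was −0.26 (SE 0.080, FDR = 0.0191). Leaving out 1 library at a time, Lgmn was called in 4 of 10 fits, with a highest FDR of 0.0716, and over all 22 alternatives in 12. In CIH males it was not called, with a log2FC of −0.20 (SE 0.091, FDR = 0.0866).

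The same 2 libraries were low in several small subunits and enzymes. Atp6v1f (ENSMUSG00000004285, chr6:29467718-29470512, plus strand), the F subunit of V1, was at 178, 179 and 212 CPM in M 5XFAD NX 1 to 3 and at 85.4 and 85.5 CPM in 4 and 5, where the latter lay inside the WT NX range of 79.1 to 118 CPM. Naglu was at 676, 571 and 703 CPM in the first 3 and at 405 and 334 CPM in 4 and 5, all above the WT NX range of 287 to 331 CPM. Without both libraries, 27 of the 36 genes were higher and 1 was lower, with 33.5% of 14299 genes called. Those higher were 8 of 8 glycosidases, 5 of 6 V0 subunits, 7 of 8 V1 subunits, 1 of 2 accessory subunits, 4 of 6 proteases and lipid hydrolases and 2 of 6 membrane proteins. The log2FC was then 1.62 for Gusb, 1.54 for Glb1, 1.51 for Hexa, 1.06 for Atp6v1a and 1.07 for Galc. That of Atp6v1f moved from 0.68 (SE 0.25, FDR = 0.0842) to 1.04 (SE 0.12, FDR = 1.6e-05).

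In CIH males (WT CIH vs 5XFAD CIH), 28 genes were higher and 1 was lower, against 25.3% and 23.7% of 14793 genes tested. All 8 glycosidases and all 6 V0 subunits were higher, with 7 of 8 V1 subunits, 1 of 2 accessory subunits, 4 of 6 proteases and lipid hydrolases and 2 of 6 membrane proteins. The median log2FC was 0.66 for the 36 genes and −0.06 for all genes, and 14 passed the limit of a log2FC above 1, against 11.8% of all genes. In 26 of the 36 genes every 5XFAD library was above every WT library, which was not counted over all genes. Scaling by library size alone, which moved the median of all genes to −0.43, gave 21 higher and 6 lower, against 60.9% of all genes called. With a trend on gene length removed from each library, 27 were higher and 1 lower, against 48% of all genes called, and Tmem106b, Psap and Atp6v0b were not among them. Over the 36 genes, log2FC and log2 gene length had a Pearson r of −0.26 (−0.18 over all genes). The number of genes with a count was 19691 to 20736 in the 5XFAD CIH males and 21900 to 33169 in the WT CIH males, without overlap, and its part in the result was not tested.

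Atp6v0d2 was at 0.379, 0.10, 0, 0.321 and 0.346 CPM in WT CIH males and at 28.9, 27.8, 24.4, 21.9 and 45.0 CPM in 5XFAD CIH males. The groups did not overlap, and the ratio of summed counts was 129 (20 counts against 2215, exact 95% interval for counting error 83.1 to 211). The separate edgeR test of Atp6v0d2 gave an FDR of 3.9e-09. Glb1 was at 75.4, 83.1, 63.8, 76.5 and 81.4 CPM in WT CIH and at 306, 284, 281, 294 and 385 CPM in 5XFAD CIH. It had the largest log2FC of the hydrolases, 2.06 (SE 0.11, FDR = 5.0e-09), followed by Gusb with 1.88 (SE 0.11), Hexa with 1.83 (SE 0.094) and Naglu with 1.75 (SE 0.15). Among the pump subunits, Atp6v1f had 1.71 (SE 0.18) and Atp6v0e, the small e subunit of V0, 1.39 (SE 0.13). Each of these had an FDR of at most 2.5e-06. With the length trend removed, Atp6v1f had a log2FC of 1.12.

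The gene that fell in CIH males was Tmem106b, a lysosomal membrane protein linked to frontotemporal dementia risk. It was at 112, 139, 146, 132 and 126 CPM in WT CIH and at 102, 116, 93.6, 97.0 and 102 CPM in 5XFAD CIH. The lowest WT library lay below the highest 5XFAD library, so the groups overlapped, and the log2FC was −0.32 (SE 0.10, FDR = 0.0114). In NX males its log2FC was 0.02 (FDR = 0.937), and in females it was not called under either treatment. Atp6v0b, which fell in CIH females, was higher in 5XFAD CIH males, with a log2FC of 0.47 (SE 0.15, FDR = 0.0201). It was at 374, 309, 389, 370.5 and 353 CPM in WT CIH and at 476, 314, 455, 517 and 670.4 CPM in 5XFAD CIH, where 1 of 5 libraries lay within the WT range.

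Across the 4 genotype comparisons, which share no libraries, 10 genes were higher in 5XFAD in each: the glycosidases Gaa, Galc, Glb1, Gusb, Hexa, Man2b1 and Naglu, together with Grn, Ppt1 and Atp6v1c1. This tally rests on the NX females. Without F 5XFAD NX 4 it was 18, without F WT NX 1 it was 1 (Atp6v0d2), without any one of the other 7 NX females 0, and with the replicate number as a block 0 of the 36 were called in NX females. Without F WT NX 1, F 5XFAD NX 4 and M 5XFAD NX 4 and 5 together, 27 were higher in each. With all libraries, 31 were higher in at least 1 comparison, and 3 were lower in at least 1 (Lgmn, Tmem106b and Atp6v0b, the last called in both directions). None of these tallies was made over all genes, so they describe the 36 genes only. Under CIH alone, 26.2% of all genes were higher in 5XFAD females and 25.3% in 5XFAD males. Called in none of the 4 comparisons were Atp6ap2, an accessory subunit also known as the prorenin receptor, Mcoln1, a calcium channel of the lysosomal membrane, and Asah1, the acid ceramidase. Mcoln1 was at 118 ± 12.04 CPM in WT NX males and at 119 ± 13.8 CPM in 5XFAD NX males (mean ± SD, n = 5 each), and the approximate 95% interval of its log2FC was −0.21 to 0.24. For Asah1 in CIH females that interval was 0.03 to 0.30 (FDR = 0.0589), and for Atp6ap2 it was −0.07 to 0.23.

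The 8 V1 subunits, which assemble into 1 complex, differed in size of change. In CIH females, their log2FC ran from 0.22 for Atp6v1h, the regulatory H subunit, to 1.30 for Atp6v1a, with 0.77 for Atp6v1b2, the B subunit that forms the catalytic ring with A. In CIH males they ran from 0.17 (not called) for Atp6v1h to 1.71 for Atp6v1f, with 1.01 for Atp6v1a and 0.66 for Atp6v1b2. Atp6v1a was at 51.2, 80.0, 73.8, 74.0 and 73.9 CPM in WT CIH males and at 148, 142, 126, 129 and 149 CPM in 5XFAD CIH males, without overlap. The accessory subunit Atp6ap1 rose in CIH females with a log2FC of 0.51 (SE 0.071, FDR = 5.7e-05) and in both male comparisons (0.46 in NX and 0.64 in CIH).

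Among the membrane proteins, Lamp1 and Lamp2, the abundant glycoproteins of the lysosomal limiting membrane, were higher in 3 of the 4 comparisons. Lamp1 was at 948, 1048, 951, 919 and 912 CPM in WT CIH males and at 2049, 1702, 1771, 1812 and 1974 CPM in 5XFAD CIH males, with no overlap and a log2FC of 0.99 (SE 0.086, FDR = 4.2e-07). Npc1, which exports cholesterol from the lysosome, rose in CIH females with a log2FC of 0.23 (SE 0.063, FDR = 0.00810) and was not called elsewhere. Scarb2, the receptor that carries glucocerebrosidase to the lysosome, rose there with 0.17 (SE 0.058, FDR = 0.0251) and was not called elsewhere, and with scaling by library size alone its log2FC was −0.02.

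Psap, the second most abundant gene of the set in WT, differed by less than most hydrolases under CIH. It rose in CIH females with a log2FC of 0.27 (SE 0.082, FDR = 0.0134) and in CIH males with 0.26 (SE 0.078, FDR = 0.0127), where scaling by library size alone gave −0.11. Grn was at 2001, 1817, 1595, 1710.5 and 1623 CPM in WT CIH males and at 4218, 3722, 4121, 4029 and 4501 CPM in 5XFAD CIH males, without overlap, with a log2FC of 1.27 (SE 0.094, FDR = 9.8e-08). Tpp1, the lysosomal tripeptidyl peptidase, rose in CIH females (0.42), NX males (0.38) and CIH males (0.50).

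Some markers of other cells and states differed with the genotype. The DAM sum was 28235 to 75424 CPM in 5XFAD males and 4133 to 7904 CPM in WT males. In females it was 25781 to 50575 CPM in 5XFAD without F 5XFAD NX 4, and 3518 to 9693 CPM in WT. The sum of 10 border macrophage markers was lower in 5XFAD, at 505 to 1081 CPM against 1301 to 1798 CPM in WT females and at 455 to 859 CPM against 1246 to 1897 CPM in WT males. The sum of 10 astrocyte markers was 404 to 1104 CPM in 5XFAD NX males against 178 to 227 CPM in WT NX males, and 245 to 723 CPM in 5XFAD CIH females against 169 to 229 CPM in WT CIH females. The microglia sum was lower without overlap in NX, at 28763 to 38696 CPM in 5XFAD against 40844 to 43252 CPM in WT males and at 28288 to 36882 CPM against 37440 to 40506 CPM in females. The sum of 10 lymphocyte markers was 8.76 to 17.8 CPM in 5XFAD CIH females and 18.5 to 23.5 CPM in WT CIH females. The astrocyte and lymphocyte sums overlapped between genotypes in NX females (131 to 399 CPM in 5XFAD against 186 to 278 CPM, and 10.5 to 21.5 CPM against 18.0 to 24.6 CPM) and in CIH males, as did the lymphocyte sum in NX males and the microglia sum under CIH. Of 10 genes of the response to cell isolation, 3 were higher in NX females (Atf3, Zfp36 and Hspa1b), 2 in CIH females, 1 in NX males, where 3 were lower, and 4 in CIH males. Of all genes, 7.26%, 26.2%, 10.4% (7.37% lower) and 25.3% were higher there, so the rises in CIH females and NX males were near or below that share. Their sum was 2801 to 4092 CPM in 5XFAD NX females and 1680.3 to 3502 CPM in WT NX females. In NX males it was 1036 to 1562 CPM in 5XFAD and 1486 to 2067 CPM in WT. The sum overlapped between genotypes in each comparison. In bulk RNA, a change in the number of cells of a type and a change of RNA per cell cannot be told apart. The part of these cells and responses in the lysosomal differences was not tested.

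Other lysosomal genes were taken from lists of the same pathway. Of 40 further hydrolases tested, 13 were higher and 2 lower in 5XFAD in NX females, 25 and 8 in CIH females, 18 and 3 in NX males and 24 and 3 in CIH males. Of all genes, 7.26% were higher and 6.61% lower in NX females, 26.2% and 25.7% in CIH females, 10.4% and 7.37% in NX males and 25.3% and 23.7% in CIH males, so the falls of hydrolases were near or below the share of all genes in each comparison. Gla, the α-galactosidase, and Pld3, a lysosomal exonuclease, led the rises in CIH females (log2FC 2.34 and 1.99) and CIH males (2.42 and 2.50). Sgsh, the heparan N-sulfatase, was lower in all 4, with log2FC of −1.42, −1.49, −1.41 and −1.55. Of 34 further membrane proteins, 7 were higher and 1 lower in NX females, 17 and 7 in CIH females, 11 and 5 in NX males and 19 and 7 in CIH males. They included Mcoln3, a channel related to Mcoln1 that was close to 0 in WT, with 6 counts in the WT CIH females together against 748 in 5XFAD CIH (ratio of summed counts 138, exact 95% interval for counting error 63.3 to 378) and 6 against 371 in CIH males (71.8, interval 32.7 to 197). Without F 5XFAD NX 4, 24 hydrolases were higher and 5 lower in NX females, with 14 membrane proteins higher and 5 lower, against 21.8% and 22.2% of all genes. Without M 5XFAD NX 4 and 5, 20 hydrolases were higher and 6 lower in NX males, with 16 membrane proteins higher and 6 lower, against 17.9% and 15.6% of all genes.

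Of the V-ATPase genes outside the set, 15 were tested in females and 14 in males, and 3 were higher and 0 lower in NX females, 4 and 5 in CIH females, 1 and 3 in NX males and 1 and 4 in CIH males. In CIH females these shares were near the 26.2% and 25.7% of all genes, and in CIH males the share of lower genes was near the 23.7% of all genes. Without F 5XFAD NX 4, 4 were higher and 6 lower in NX females, and without M 5XFAD NX 4 and 5, 1 was higher and 4 lower in NX males. Atp6v0e2, the paralog of Atp6v0e, was higher in CIH females (log2FC 1.46) and CIH males (1.33), while Atp6v0a2, an a subunit of Golgi pumps, was lower in both (−0.77 and −1.0). Of 35 genes of lysosomal trafficking and nutrient sensing, 4 were higher and 1 lower in NX females, 22 and 4 in CIH females, 8 and 1 in NX males and 19 and 5 in CIH males. Without the same libraries, 23 were higher and 2 lower in NX females and 18 and 3 in NX males. With all libraries, Rragd, a GTPase of the nutrient-sensing complex, rose in all 4 (log2FC 3.20, 3.49, 3.77 and 3.38). Tfe3 was lower in all 4 (log2FC −0.35, −0.38, −0.38 and −0.38). Tfeb was lower in CIH females (−0.31) and was not called in NX females (−0.15), NX males (−0.25) and CIH males (0.19). Mitf, of the same family, was higher in NX females (0.45), CIH females (0.57) and NX males (0.75) and was not called in CIH males (0.25).

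CIH was then compared with NX within each genotype, on the same libraries as the genotype comparisons above. In WT females (WT NX vs WT CIH), edgeR called 0 of the 35 genes that passed its filter on low counts, as it called 0% of 14583 genes. An unadjusted p below 0.05 was reached by 0 of the 35 and by 3.87% of all genes, and DESeq2 and limma on log2 FPKM called 0 of the 35. The log2FC ran from −0.29 for Atp6v1a to 0.10 for Atp6v0a1, a subunit that carries the proton path of V0. Atp6v1a was at 118, 67.2, 79.7 and 68.3 CPM in WT NX females and at 61.0, 60.9, 59.2, 76.4 and 76.6 CPM in WT CIH females, and F WT NX 1 stood far above the CIH range. Without that library its log2FC was −0.07.

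In 5XFAD females, edgeR called 0 of the 36 genes between NX and CIH, as it called 0% of 14578 genes. An unadjusted p below 0.05 was reached by 0 of the 36 and by 3.22% of all genes, and DESeq2 and limma called 0. The log2FC lay between −0.10 for Tmem106b and 0.24 for Atp6v0d2. Glb1 had a log2FC of 0.00 (approximate 95% interval −0.62 to 0.63), and without F 5XFAD NX 4 one of −0.23 (SE 0.11, FDR = 0.671). Without that library 0 of the 36 were called as well.

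WT males differed between NX and CIH in 15 of the 35 genes tested. In CIH, 14 were lower and 1 was higher, against 15% and 13.6% of 14983 genes. Glycosidases were lower in 5 of 8 cases, V0 subunits in 3 of the 5 tested, V1 subunits in 3 of 8, proteases and lipid hydrolases in 2 of 6 and membrane proteins in 1 of 6. None passed a log2FC of 1 in size, against 1.63% of all genes upwards and 0.881% downwards. The median log2FC (CIH against NX) was −0.19 for the 35 genes and −0.01 for all genes. In 9 of the lysosomal genes every CIH library was below every NX library, which was not counted over all genes. Scaling by library size alone gave 10 lower and 2 higher, against 29.2% of all genes called.

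Naglu (ENSMUSG00000001751, chr11:101070012-101077672, plus strand) fell most. It was at 287, 287, 313, 297 and 331 CPM in WT NX males and at 199, 236, 159.8, 160.1 and 145 CPM in WT CIH males. The highest CIH library was below the lowest NX library, and the log2FC was −0.77 (SE 0.11, FDR = 3.8e-04). Atp6v1f was at 86.4, 79.1, 81.6, 118 and 103 CPM in NX and at 67.0, 55.4, 63.5, 51.5 and 53.2 CPM in CIH, also without overlap, with a log2FC of −0.70 (SE 0.12, FDR = 6.7e-04). Atp6v0e went from 86.9 to 111 CPM in NX to 61.0 to 77.3 CPM in CIH, with −0.57 (SE 0.093, FDR = 6.3e-04). Glb1 went from 88.9 to 116 CPM to 63.8 to 83.1 CPM, with −0.50 (SE 0.094, FDR = 0.00140).

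The other genes that fell were Atp6v1g1, Gaa, Hexa, Atp6v1e1, Atp6v0d1, Grn, Atp6v0b, Man2b1, Lgmn and Lamp1, with log2FC between −0.42 and −0.25. Hexa was tightly grouped in CIH, at 722 to 754 CPM, against 796 to 1111 CPM in NX. Lgmn, which fell with the genotype as well, was at 3608 to 3982 CPM in CIH and at 4298 to 4749 CPM in NX. The gene that rose was Tmem106b, from 120.1, 103, 109, 106 and 99.3 CPM in NX to 112, 139, 146, 132 and 126 CPM in CIH, where the lowest CIH library lay inside the NX range, with a log2FC of 0.27 (SE 0.087, FDR = 0.0277). Leaving out 1 library at a time, Tmem106b was called in 4 of 10 fits, Atp6v0b in 3, Atp6v0d1 in 4, Lamp1 in 5, Man2b1 in 7 and each of the other 10 genes in all 10. Gusb, Galc, Ppt1 and Atp6v1c1, which were higher in 5XFAD in every genotype comparison, had log2FC of −0.19, 0.06, −0.12 and −0.04 and were not called. Of the other lysosomal lists, 1 of 40 hydrolases was higher and 18 were lower, 3 of 32 membrane proteins were higher and 10 lower, 6 of 36 trafficking and nutrient-sensing genes were higher and 13 lower, and 2 of 15 V-ATPase genes were higher and 1 lower, against 13.6% of all genes higher and 15% lower.

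**Figure D3:**
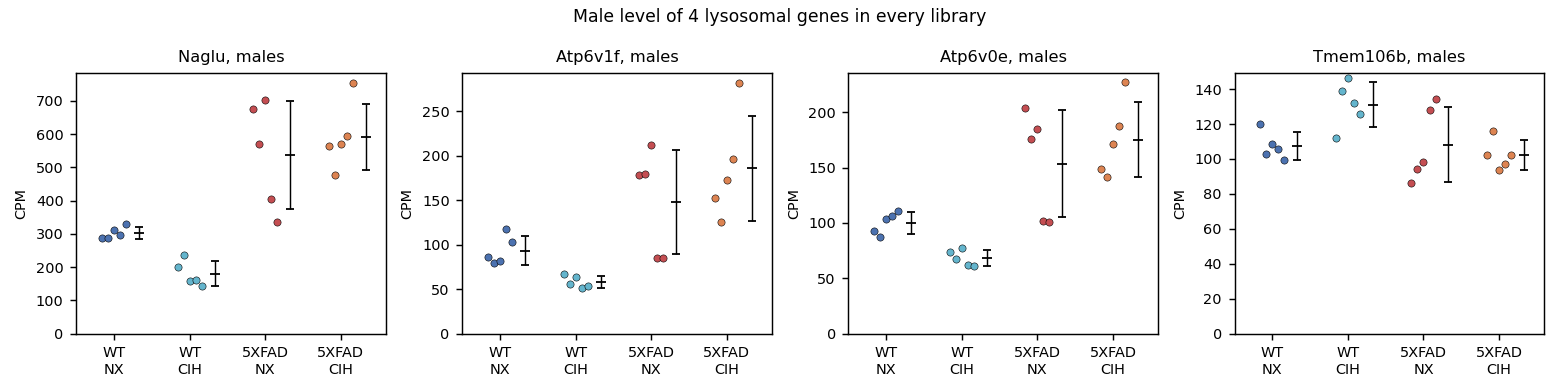
Level (CPM) of Naglu, Atp6v1f, Atp6v0e and Tmem106b in every male library by group, with points as libraries and the mean ± SD as bars. WT CIH lies below WT NX without overlap for the first 3 genes, and M 5XFAD NX 4 and 5 are the 2 low points of the 5XFAD NX group in those panels (85.4 and 85.5 CPM for Atp6v1f).

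These calls depended on the fit, and the differences varied with gene length. With all 4 male groups in 1 fit, which shares a single estimate of the spread, 0 of the 35 genes were called, as were 0% of all genes. Across the 35 genes, log2FC and log2 gene length had a Pearson r of 0.62, and across all 14983 genes it was 0.24 (genes share libraries and are not independent replicates). The shortest gene of the set, Atp6v1f (1063 bases), had the second largest fall, and the longest, Galc (14879 bases), had a log2FC of 0.06. With the trend on length removed, 11 of the 35 genes were lower and 0 higher, against 18.5% of all genes called, and 7 of the 15 calls were among them. Those lost were Atp6v1g1 (log2FC −0.06), Hexa (−0.11), Grn, Lgmn, Lamp1, Atp6v0b, Atp6v0d1 and Tmem106b. The number of genes with a count was 21900 to 33169 in the WT CIH libraries and 18385 to 21676 in the WT NX libraries, without overlap. Sums of marker genes also differed between the 2 groups: the DAM sum was 4133 to 4504 CPM in CIH and 5392 to 7904 CPM in NX, the microglia sum 33343 to 38753 CPM and 40844 to 43252 CPM, the sum of 10 monocyte markers 116 to 145 CPM and 163 to 281 CPM, and the sum of 10 lymphocyte markers 19.6 to 28.0 CPM and 29.6 to 48.2 CPM, each without overlap. The sum of 10 neutrophil markers overlapped, at 118 to 352 CPM and 251 to 1335 CPM. The part of these in the result was not tested.

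**Figure D4:**
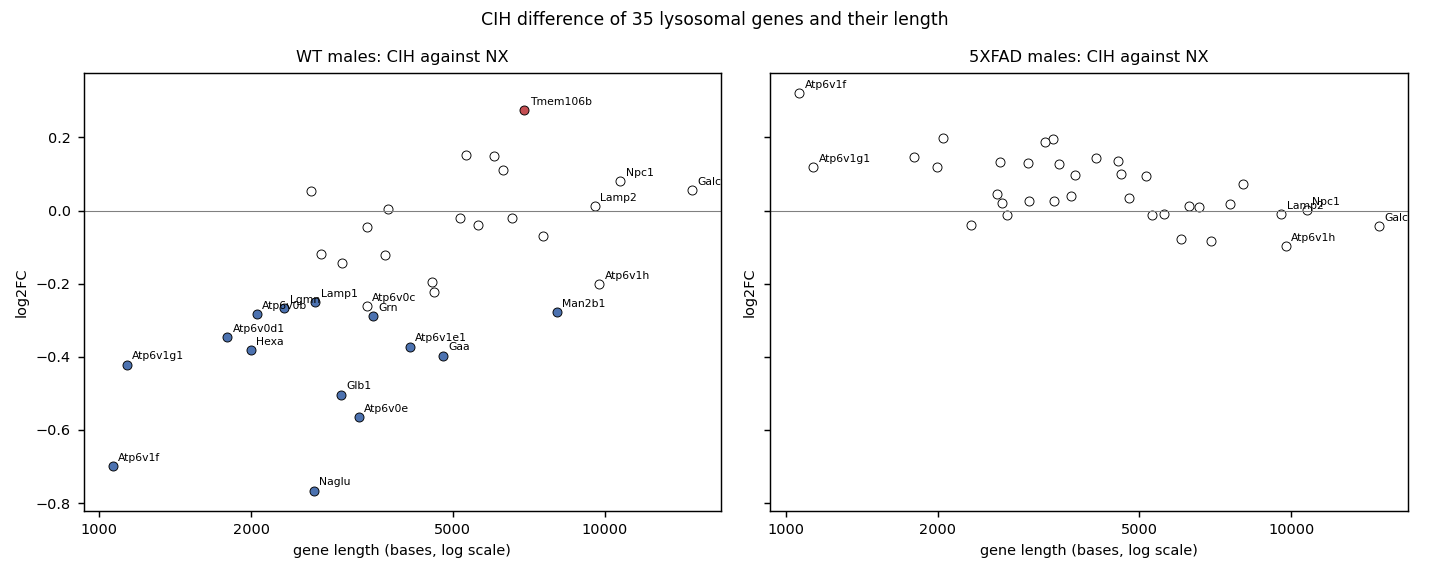
CIH difference (log2FC of CIH against NX) of 35 genes by gene length (bases, log axis) in WT males and 5XFAD males; each point is a gene, blue was lower and red higher with an FDR below 0.05, and white was not called. Atp6v1f (1063 bases) lies near the bottom in WT males (−0.70) and at the top in 5XFAD males (0.32).

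In 5XFAD males, edgeR called 0 of the 36 genes between NX and CIH, as it called 0% of 14334 genes. An unadjusted p below 0.05 was reached by 0 of the 36 and by 3.3% of all genes, and DESeq2 and limma called 0. The log2FC lay between −0.10 for Atp6v1h and 0.32 for Atp6v1f. Of the 36, 27 had a positive value, but 17 did with scaling by library size alone. Naglu had a log2FC of 0.13 (approximate 95% interval −0.26 to 0.53), and without M 5XFAD NX 4 and 5 one of −0.13 (SE 0.13, FDR = 0.790). Across the 36 genes, log2FC and log2 length had a Pearson r of −0.65, opposite in sign to that of WT males.

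**Figure D5:**
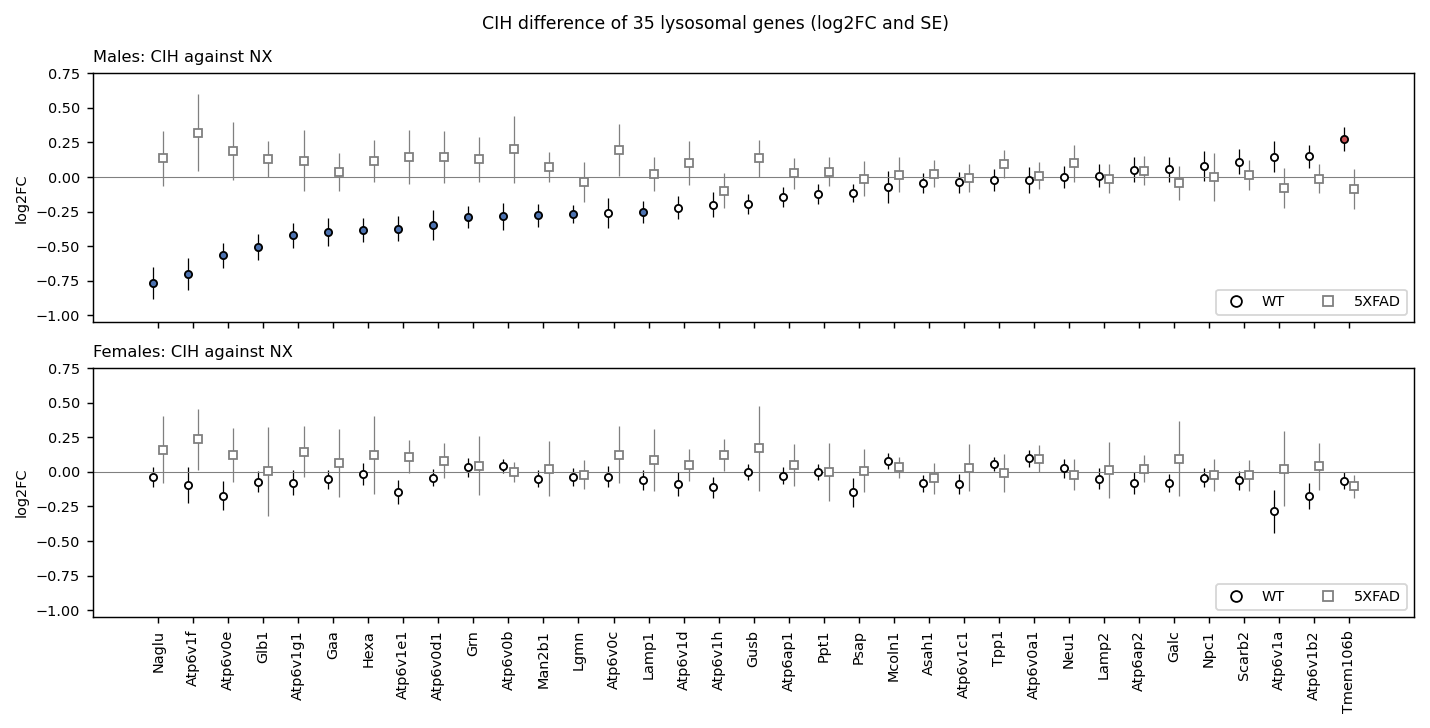
CIH difference (log2FC of CIH against NX, with its SE as a line) of 35 genes in males above and females below, ordered by the value in WT males; circles are WT and squares 5XFAD, and a blue fill marks genes lower and a red fill genes higher with an FDR below 0.05. Filled points occur in WT males alone, from Naglu (−0.77) to Tmem106b (0.27).

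Whether the genotype difference depended on treatment was tested as an interaction over the 4 groups of a sex. In males, edgeR called 0 of the 36 genes, as it called 0% of 15813 genes. An unadjusted p below 0.05 was found for 13 of the 36 and for 24.4% of all genes. The largest values on the log2 scale were 1.02 (SE 0.33, FDR = 0.119) for Atp6v1f, 0.90 (SE 0.25, FDR = 0.117) for Naglu, 0.75 (SE 0.25, FDR = 0.121) for Atp6v0e and 0.63 (SE 0.16, FDR = 0.117) for Glb1, all in the direction of a larger genotype difference under CIH. Across the 36 genes, this value and log2 gene length had a Pearson r of −0.63, and across all genes −0.20. On the same libraries, DESeq2 called 6 genes (Glb1, Hexa, Man2b1, Naglu, Atp6v0e and Atp6v1f), the likelihood ratio test 2 (Glb1 and Naglu) and limma 0, against 6.43% of all genes by DESeq2 and 1.57% by the likelihood ratio test. Without M 5XFAD NX 4 and 5, edgeR called 0, 6 of the 36 had an unadjusted p below 0.05 against 10.4% of all genes, and the value of Atp6v1f was 0.66 (SE 0.24).

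In females, edgeR called 0 of the 36 genes for the interaction, as it called 0% of 15582 genes, and DESeq2, the likelihood ratio test and limma also called 0. An unadjusted p below 0.05 was found for 1 of the 36 and for 3.78% of all genes. That gene was Atp6v0d2, with a value of 6.09 (SE 1.99, FDR = 0.952), which was 1.13 (SE 1.13) without F WT NX 1 and F 5XFAD NX 4. Glb1 had a value of 0.06 (SE 0.37).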

How the data were processed

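Microglial mRNA was sequenced by a commercial provider (NovaSeq6000, paired ends) and aligned to GRCm38/mm10, with HISAT2 named in the processing notes of the submitters. The version and the counting tool are not given in the sources used here. The authors deposited 1 table per sex with raw read counts per gene and the FPKM values made from them. In the deposited female table, FPKM equal counts per gene length and per library total, while in the deposited male table they are scaled by size factors instead. The columns were matched to the labelled samples by name, and 0 columns of per-sample values were left unused.

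Counts were tested with edgeR 4.0.16 (R 4.3.3, quasi-likelihood F test, TMM, FDR below 0.05 by Benjamini-Hochberg over all genes), 1 fit per pair of groups, on genes above 1 CPM in at least 3 samples of the pair. The interaction used the 4 groups of a sex. SE is the absolute log2FC divided by the square root of F. A fit across all genes pools their spread, and approximate 95% intervals rest on a normal distribution. Fits were tested on simulated data. Alternatives were DESeq2 1.42.0, limma 3.58.1 on log2(FPKM + 1) and log2(FPKM + 0.1), a likelihood ratio test, other scalings, filters and limits, all 4 groups in 1 fit, a replicate block and leaving out each library. After seeing the data, removal of the length trend and joint removal of the libraries that stood apart were added. Replicates are stated to be independent samples, and 76 pairs of libraries within groups all differed by more than sampling noise. Replicate numbers were not taken as pairs in the main fits.

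All 36 members could be named, and of the other lysosomal lists those with the largest called changes. Members and lists were chosen with earlier results of these data known. The promoter stretches were chosen after the motif search had been seen. Counting intervals cover counting error only. Levels in CPM were compared between libraries and not between genes.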

Additional observations from a re-analysis of the deposited data

Results flagged for a closer look

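In 17 of 288 groups of 4 or 5 libraries, 1 library of a member gene lay farther from the others than Dixon's 95% limit allows, and chance alone gives such a gap in about 1 of 20 groups. F 5XFAD NX 4 was the lowest of its group in 6 genes: Psap (3035 CPM), Atp6v1b2 (108 CPM), Atp6v1c1 (89.6 CPM), Atp6v0d1 (59.9 CPM), Neu1 (59.3 CPM) and Atp6v1d (45.4 CPM). F WT NX 1 was the highest in Atp6v0d2 (33.4 CPM).

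The other 10 gaps were spread over 8 libraries. F 5XFAD CIH 5 was apart in Tpp1 (597 CPM) and Gaa (436 CPM), and M WT CIH 2 in Lamp1 (1048 CPM) and Npc1 (347 CPM). Single genes were Atp6v0b in F 5XFAD CIH 1 (358 CPM), Lamp2 in F WT NX 3 (639.5 CPM), Glb1 in M 5XFAD CIH 5 (385 CPM), Atp6ap2 in M 5XFAD NX 5 (159 CPM), Atp6v1a in M WT CIH 1 (51.2 CPM) and Atp6v1h in M WT NX 4 (56.9 CPM).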

How the results depend on the processing

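The genotype calls of NX females were the least stable. Against 10 called members, DESeq2 called 20 (24.2% of all genes), the likelihood ratio test 16 (18.8%), all 4 groups in 1 fit 22 (32%), an FDR below 0.01 called 0 (0.0827%), the added limit of an absolute log2FC above 1 left 6 (5.99%), and the replicate block left 0 (0.0482%). Leaving out 1 library gave 0 to 26 (26 without F 5XFAD NX 4, 1 without F WT NX 1, 0 without each of the others), and leaving out both of these gave 29. In CIH females (32 called), the log2FC limit left 8 (all higher, against 8.83% of all genes), and leaving out 1 library gave 30 to 33. In NX males (20 called), that limit left 6 (all higher, against 5.94%). Leaving out 1 library gave 17 to 23 there, and leaving out M 5XFAD NX 4 and 5 together gave 28 (33.5% of all genes). In CIH males (29 called), the limit left 14 (all higher, against 11.8%), and leaving out 1 library gave 28 to 30. In the CIH comparison of WT males (15 called), all 4 groups in 1 fit called 0 (0% of all genes), and an FDR below 0.01 left 9. The log2FC limit left 0 there (1.63% of all genes higher, 0.881% lower), and leaving out 1 library gave 10 to 17 (10 without M WT CIH 3 or 4). For these comparisons, shares of all genes are not given for fits without 1 library or at an FDR below 0.01. Those counts of members may follow the calls over all genes. The cause was not tested, except that both stricter limits lower a count by construction.

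Where edgeR called 0 members, no filter on low counts called 1 in WT females (Atp6v0d2, which was high in F WT NX 1 alone). In the male interaction DESeq2 called 6, the likelihood ratio test 2, no filter 4 (4.57% of all genes), and leaving out 1 library 0 to 3 (3 without M 5XFAD NX 1, with 6.05% of all genes). In 5XFAD females, 5XFAD males, WT females and the female interaction, leaving out 1 library gave 0 in each refit. Of the calls, 25 of 32 in CIH females, 21 of 29 in CIH males, 14 of 20 in NX males, 0 of 10 in NX females and 0 of 15 in WT males were kept in every alternative of those comparisons other than both stricter limits.

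3 called members changed sign. Scarb2 in CIH females had a log2FC of −0.022 with library size scaling, −0.020 with limma on log2(FPKM + 1) and −0.020 with limma on log2(FPKM + 0.1). In CIH males, library size scaling gave −0.11 for Psap and −0.066 for Atp6v0a1. That scaling put the median log2FC of all genes at −0.16 to −0.43 in the genotype comparisons.

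Correlations of same-numbered libraries ran from −0.56 to 0.31, and in no comparison did every library correlate best with its own number. With so few libraries per group, this cannot exclude that some same-numbered libraries were related. With the replicate block, 33 members were called in CIH females (52.3% of all genes), 29 in CIH males (48.1%), 14 in NX males (8.83%), 11 in WT males (25.7%) and 0 in NX females. Near 0, Atp6v0d2 rests on few counts per WT library. The counting intervals given for its ratio leave out the spread between mice. In NX females the ratio was 3.35 with all libraries and 139 without F WT NX 1 and F 5XFAD NX 4.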
